A study of Mus musculus with 24 samples.

Results

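Lung tumours that arose in mice with an EGFR T790M transgene were compared with normal lung of the same strain label. EGFR, the epidermal growth factor receptor, is a receptor tyrosine kinase of epithelial cells, and T790M is a change in its kinase domain best known from lung cancers that no longer respond to EGFR inhibitors. The comparison took 10 of the 24 arrays of the series: 5 tumours titled T790M and 5 normal lungs titled control, with FVB as the strain of both groups. Every array held total RNA of mouse lung tissue on an Affymetrix mouse genome chip. The tumours were nodules seen by eye and cut out of mice with the genotype C/T790M, which carry both transgenes and had been on a doxycycline diet for 3 to 6 months. Normal lungs came from littermates that were also on doxycycline and had none of the transgenes or only 1. The labels do not spell out C; in the published model it is a doxycycline-dependent activator under the promoter of the club cell gene Scgb1a1, which switches on a human EGFR transgene. Other groups served to show where these tumours differed: 5 L858R+T790M tumours (C/L+T, strain FVB), 4 L858R tumours (C/L858R, strain FVB mixed) and 5 normal lungs of the strain FVB mixed. The labels name no animal, sex, batch or date. Nor do they state whether the arrays of a group were different animals. All p-values therefore refer to the variation among these arrays, part of which may be technical.

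EGFR signals through RAS to the ERK kinases, which switch on transcription factors of the ETS family and, as a brake, phosphatases and inhibitors such as the DUSP, Sprouty and Spred proteins. The alveolar type 2 cell makes surfactant and renews the alveolus, and lung adenocarcinomas with mutant EGFR commonly keep features of this cell. Normal lung tissue also holds type 1 cells, airway cells, a dense capillary bed, stroma, pleura, the cardiac muscle sleeve of the pulmonary veins and many leukocytes. A nodule cut from the lung therefore differs from whole lung in its mix of cells as well as in what each cell transcribes, and with bulk RNA fewer cells of a type and less RNA per cell cannot be told apart.

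Levels are log2 values of the RMA method, differences are log2 differences between group means ± SE, and n is 5 arrays a group throughout unless another number is given. A gene was called when its adjusted p in limma, a linear model fitted to all 24 arrays, was under 0.05 (Benjamini-Hochberg over 18193 genes). By that measure 3978 genes were higher in T790M tumours (21.9% of those tested) and 3260 were lower (17.9%). The larger changes leaned the other way: 609 called genes were at least 2-fold higher and 922 at least 2-fold lower, and beyond 4-fold there were 92 and 240. Every T790M array lay above every FVB normal for 17.0% of all genes and below for 12.8%. The median difference of all genes was 0.00. Since so many genes passed, counts within a gene group are to be read against these shares. Of the 7238 calls, 5648 were kept whichever of the 10 arrays was left out, and without T790M 1 the count was 7326.

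The tumours were less alike than the normal lungs. The mean distance of a gene from the FVB normal mean was 0.316 (T790M 1), 0.520 (T790M 2), 0.376 (T790M 3), 0.546 (T790M 4) and 0.365 (T790M 5), against 0.108 to 0.149 for a normal lung from the other 4. T790M 1 stood nearest to normal lung: of the 1531 called genes that differed at least 2-fold, it lay within the normal range for 151 (9.86%), and the other tumours for 10 to 34. It carried a median 0.81 of the mean rise but 0.50 of the mean fall, while T790M 4 carried 1.20 and 1.38. The SD between arrays was higher among tumours for 81.8% of genes, with a median of 0.186 against 0.0991. Xist, transcribed from the inactive X chromosome, and the Y-linked genes split both groups alike (Xist high in arrays 3 and 4 of each), so both groups had the same split. The gap between probe sets at the 3′ and 5′ ends, a measure of RNA integrity, differed by -0.032 for Gapdh and 0.07 for Actb, each with adjusted p = 0.333 (exact two-sided permutation test, n = 5 and 5).

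The largest rise among genes whose groups did not overlap was that of Kng1, which encodes the kininogen that is cut to kinins. It read 7.96, 10.56, 11.07, 11.16 and 8.66 in T790M 1 to 5 and 4.35 to 4.88 in FVB normals. Kng1 was 39.5-fold higher (5.30 ± 0.63, adjusted p = 2.08e-06), and the groups were far apart. Tumours 1 and 5 had the lowest values, here and for several genes that follow. The dimmer of the Kng1 probe sets did not pass the test, nor did that of Dlk1.

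Dlk1 encodes a membrane protein of the NOTCH ligand family that is made in fetal tissues, and its imprinted neighbours Meg3, Rian and Mirg are noncoding RNAs of the same chromosome domain, Mirg and Rian being hosts of microRNAs and small nucleolar RNAs. All 4 measured members of this cluster rose. Dlk1 read 8.13, 12.12, 11.94, 14.13 and 8.99 in T790M 1 to 5 and 6.35 to 6.67 in FVB normals, a difference of 4.54 ± 0.94 (adjusted p = 0.000529). Meg3 was far more even, at 13.21 to 13.87 in tumours against 9.09 to 9.45 (4.42 ± 0.25, adjusted p = 2.4e-10). The spread of Dlk1 among tumours thus had no counterpart in this probe set of Meg3, the brightest of 11. The other 10 were also called higher, by 1.61 to 6.55, and their spread among tumours was not examined. Rian differed by 4.21 ± 0.52 and Mirg by 3.88 ± 0.58, and T790M 1 was the lowest tumour for both. Of 16 other imprinted genes 2 rose and 4 fell (median -0.16). Phlda2, a placental growth restrictor, rose by 1.97 ± 0.21, and Ndn, a growth-suppressing gene of neurons and stroma, fell by 2.56 on the log2 scale.

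The other genes among the 15 largest rises were of several kinds. Cldn2, a tight junction claudin of leaky epithelia, read 8.73, 12.14, 11.87, 11.67 and 9.82 in T790M 1 to 5 and 6.49 to 7.20 in FVB normals (4.03 ± 0.66). Afp, the serum protein of fetal liver, read 7.50, 11.01, 7.95, 9.63 and 8.13 against 4.82 to 6.27 (3.19 ± 0.47). Piwil4, a PIWI protein of the germ line, was at 8.80 to 10.51 against 5.28 to 6.19 (3.84 ± 0.28), and thus even among tumours. Npy2r, a receptor of neuropeptide Y, was at 6.41 to 9.85 against 3.88 to 4.12 (3.72 ± 0.63). Arg2, the mitochondrial arginase, read 11.13, 11.91, 11.59, 12.21 and 10.99 against 6.83 to 8.44 (3.98 ± 0.32, adjusted p = 1.18e-08). Ros1, a receptor tyrosine kinase of epithelia, was at 8.71 to 9.70 against 5.18 to 6.07 (3.54 ± 0.34). The list was completed by Sertad4 (3.51 ± 0.40), the sialyltransferase gene St8sia6 (3.26 ± 0.43), Tnfsf9 (3.16 ± 0.36), the ligand of the T cell receptor 4-1BB, and the neutrophil chemokine Cxcl3 (3.12 ± 0.55). Each of these 15 genes stayed called whichever array was left out.

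**Figure D1:**
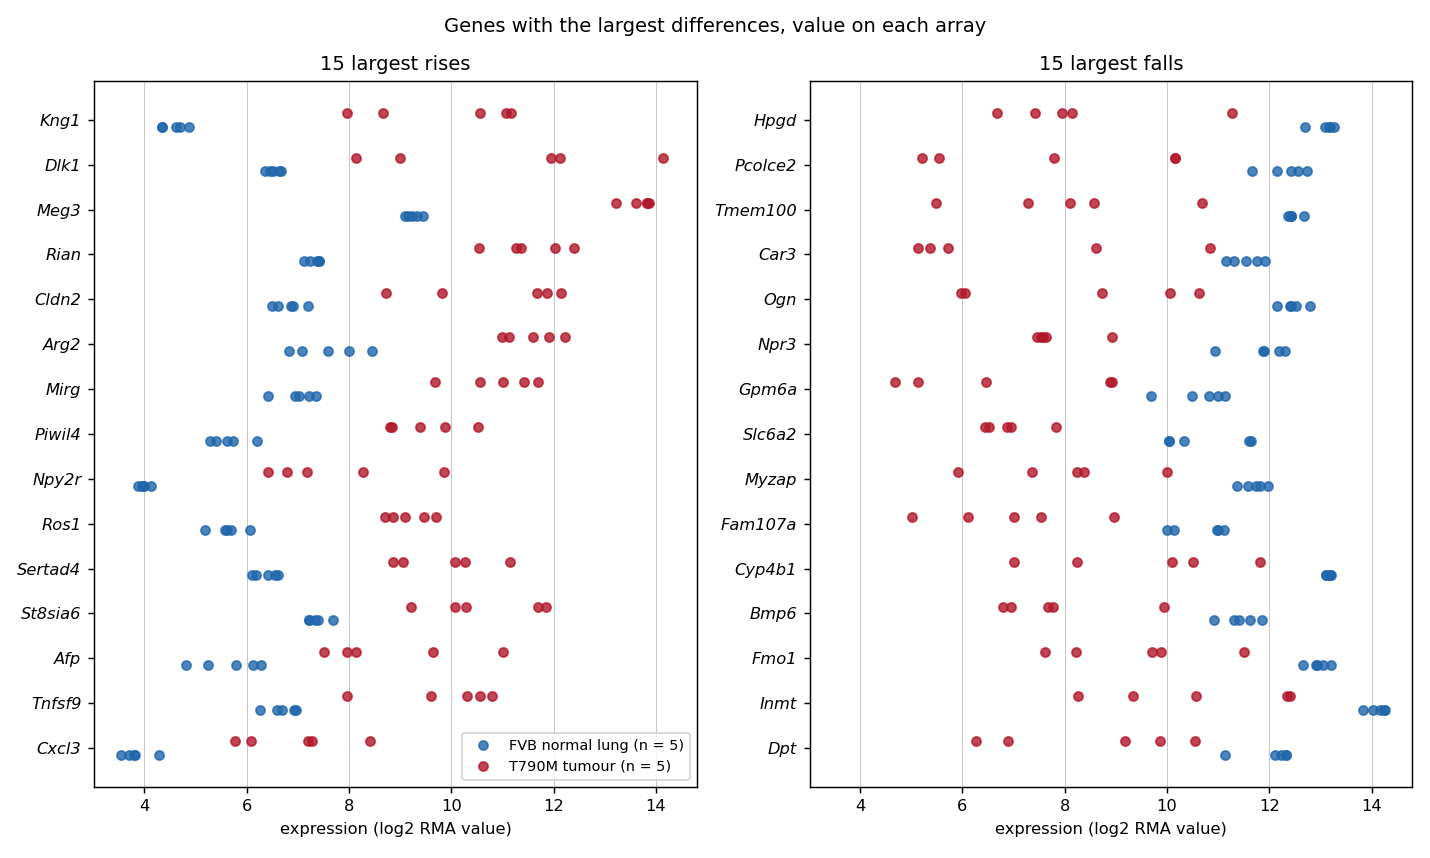
Each point is the log2 RMA value of 1 array for the 15 genes with the largest rises (left) and the 15 with the largest falls (right) among called genes whose groups did not overlap; red points are T790M tumours and blue points FVB normal lungs (n = 5 each). Normal lungs cluster tightly, as for Kng1 between 4.35 and 4.88, while tumours spread widely, as for Dlk1 between 8.13 and 14.13.

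The 15 largest falls covered genes of several kinds. Hpgd, which inactivates prostaglandins, read 11.26, 7.42, 8.14, 6.68 and 7.95 in T790M 1 to 5 and 12.70 to 13.27 in FVB normals, a 27.6-fold fall (-4.79 ± 0.79, adjusted p = 5.68e-05). Tmem100, a membrane protein of capillary cells that depends on BMP signals, read 10.68, 7.28, 8.57, 5.49 and 8.11 against 12.36 to 12.68 (-4.44 ± 0.78). In both, T790M 1 kept the highest and T790M 4 the lowest tumour value. Npr3, which clears natriuretic peptides, read 8.92, 7.53, 7.46, 7.57 and 7.63 against 10.93 to 12.31 (-4.02 ± 0.44, adjusted p = 6.77e-07), so that 4 tumours were nearly equal. Slc6a2, the noradrenaline transporter, was at 6.45 to 7.83 against 10.03 to 11.64 (-3.81 ± 0.45), and Bmp6, a BMP ligand, at 6.79 to 9.93 against 10.92 to 11.86 (-3.60 ± 0.50). Matrix genes fell with them: Pcolce2 (-4.53 ± 0.93), Ogn (-4.17 ± 0.88) and Dpt (-3.47 ± 0.69). Car3 (-4.40 ± 0.76), a carbonic anhydrase of fat and muscle, the mesothelial gene Gpm6a (-3.81 ± 0.72), Myzap (-3.72 ± 0.59), a junction protein of heart and endothelium, and Fam107a (-3.71 ± 0.68) followed. The remaining members were the enzymes Cyp4b1 (-3.63 ± 0.72), Fmo1 (-3.56 ± 0.60) and Inmt (-3.52 ± 0.72), which metabolise foreign compounds and amines in lung.

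Epithelial genes were checked first as a test of the tissue. Alveolar type 2 markers were prominent in every tumour: Sftpc, for surfactant protein C, read 14.72 to 14.86 in tumours and 14.75 to 14.79 in normal lungs, near the top of the scale (0.01 ± 0.03, adjusted p = 0.876). Of 15 type 2 genes 11 rose and 0 fell, against 21.9% and 17.9% of all genes, with a median of 0.76. Cebpa, a transcription factor of type 2 cells, read 12.82, 13.03, 13.13, 13.43 and 12.93 in T790M 1 to 5 and 11.21 to 11.47 in FVB normals (1.76 ± 0.13). Nkx2-1, the lineage factor of lung epithelium, was at 7.91 to 8.59 against 7.01 to 7.50 (0.91 ± 0.13), and Napsa, an aspartic protease of surfactant processing, rose by 0.92. All 5 tumours lay above all normals for both factors. Il33, an alarmin cytokine, differed by 1.12 ± 0.37, but its ranges overlapped and the call was lost without T790M 2. The 4 type 2 genes that did not pass were Sftpc, Slc34a2 (0.20), Cxcl15 (0.22) and Lyz1 (-0.23); 1 gene of the list fell once T790M 1, 3 or 5 was left out.

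Genes shared by epithelia rose too, 10 of 16 with 0 falls (median 1.05). Epcam, an adhesion molecule, read 12.26, 13.08, 12.27, 13.09 and 12.44 in T790M 1 to 5 and 10.97 to 11.23 in FVB normals (1.54 ± 0.18). Krt18, a keratin of simple epithelium, was at 11.89 to 13.74 against 10.10 to 10.59 (2.15 ± 0.26). Tumours 2 and 4 stood above the rest for both. The splicing factor Esrp1 (1.69), the transcription factor Grhl2 (1.29) and the claudins Cldn3 (1.23) and Cldn7 (1.28) rose as well. Krt19, of ducts and airways, differed by -0.05 and did not pass.

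The other epithelial types of the lung were lower. All 13 measured genes of ciliated cells fell (median -1.09), among them Foxj1 (-1.20), the master factor of motile cilia, and Tppp3 (-2.77 ± 0.49), a tubulin-binding protein, which read 11.17, 8.39, 8.82, 8.14 and 9.86 against 11.74 to 12.24. Of 12 type 1 genes 8 fell (median -1.05): Hopx, a transcriptional regulator of type 1 cells, read 12.54, 12.06, 12.05, 10.85 and 12.36 against 13.22 to 13.77 (-1.59 ± 0.26), and Igfbp2 differed by -2.43. Aqp5, the water channel of type 1 cells, differed by 0.50 and did not pass; without T790M 4, 1 gene of the list rose. Club cell genes fell in 7 of 12 (median -1.39), among them Scgb3a2 (-2.24) and the aldehyde dehydrogenase gene Aldh1a1 (-2.31). Scgb1a1, whose promoter drives the activator in the published model, read 14.50, 12.88, 14.09, 11.99 and 14.47 against 14.61 to 14.77. Although no tumour reached the lowest normal, the difference of -1.11 ± 0.44 missed the threshold (adjusted p = 0.0510), and passed with all 10 normal lungs as the control (-1.08, adjusted p = 0.0222). Of 8 neuroendocrine genes 3 fell and 1 rose, the amine-synthesis gene Ddc; 2 to 3 rose when FVB normal 1, 3 or 4 or T790M 1, 3 or 5 was left out. Chga and Syp, defining genes of that cell, differed by 0.23 and 0.00 and did not pass. Chga was borderline: it passed without FVB normal 1, 3 or 4 or T790M 1 or 5. It also passed with array weights, repeated quantile normalization or a sex score in the model.

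Genes of gut, liver and the fetus were not raised as a group. Of 19 such genes 3 rose, Cldn2, Afp and Sox9, and 2 fell, with a median of 0.32; 5 rose when T790M 1 or T790M 3 was left out, and 1 fell without FVB normal 2, 4 or 5 or T790M 1 or 4. Sox9, a factor of distal lung buds, read 5.79, 9.19, 7.45, 9.75 and 6.39 in T790M 1 to 5 and 5.84 to 6.23 in FVB normals. Its difference of 1.63 ± 0.60 rested on tumours 2, 3 and 4, and the call was lost without T790M 2, T790M 4 or any of the FVB normals. Alb, the albumin gene, read 7.92, 8.92, 8.16, 9.91 and 7.90 against 6.34 to 7.13, with no overlap, but did not pass (1.81 ± 0.82, adjusted p = 0.0849; it passed in a fit to these 10 arrays alone, adjusted p = 0.00323). Hnf4a, Ttr and Onecut2, factors and products of liver, differed by 0.31, 0.03 and -0.01 and did not pass.

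**Figure D2:**
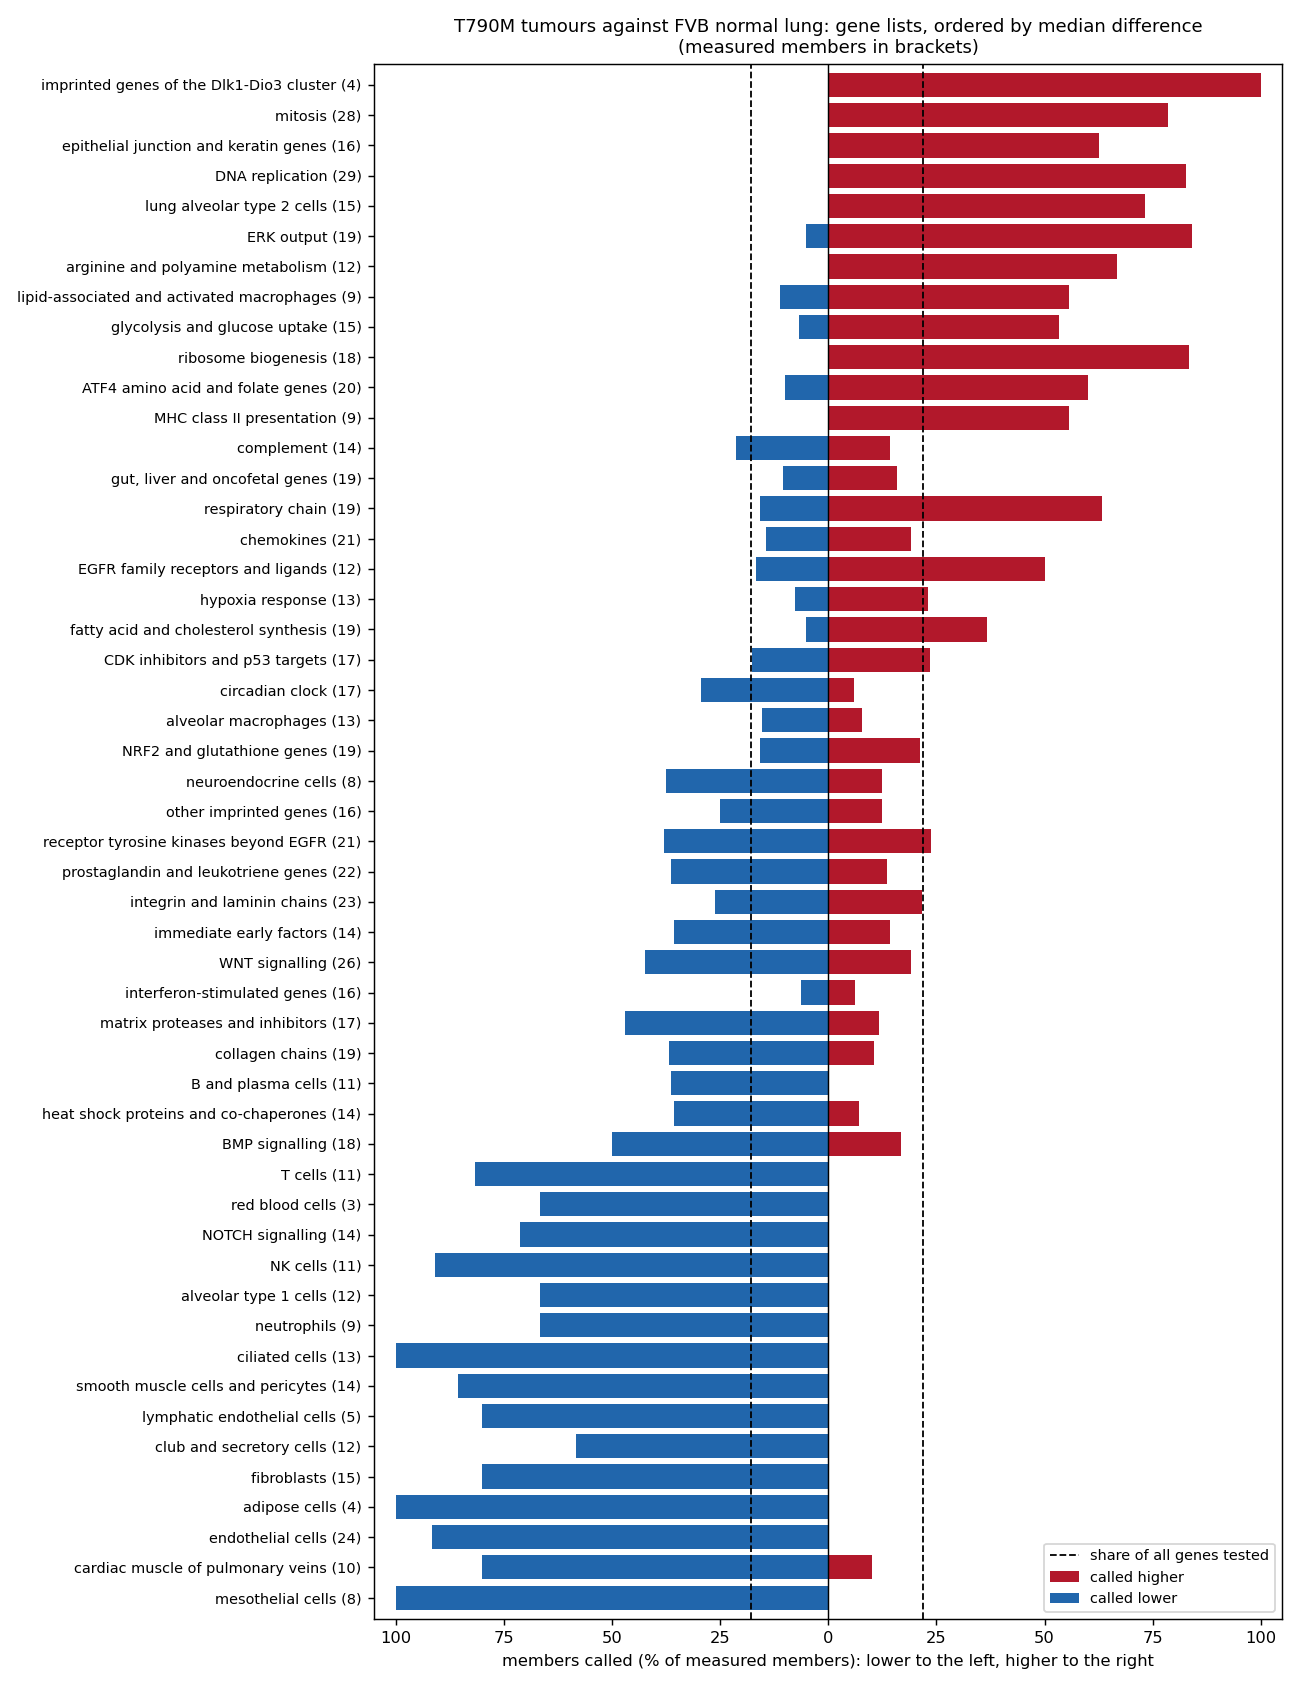
Bars give the share of measured members of each gene list called lower (blue, to the left) or higher (red, to the right) in T790M tumours against FVB normal lungs, and dashed lines the shares among all genes tested, 17.9% lower and 21.9% higher. Lists are ordered by their median log2 difference, and the number of measured members stands in brackets; 22 of 28 mitosis genes were higher and 22 of 24 endothelial genes lower.

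Most vascular and stromal genes fell. Of 24 endothelial genes 22 were lower (median -2.01), against 17.9% of all genes. Tek, the angiopoietin receptor, read 11.04, 8.44, 9.65, 6.97 and 9.66 in T790M 1 to 5 and 12.29 to 12.74 in FVB normals (-3.33 ± 0.54), and Cldn5, the claudin of endothelial junctions, 11.86, 9.28, 10.03, 8.38 and 10.25 against 12.92 to 13.36 (-3.21 ± 0.51). The order of the tumours was nearly the same for both genes, T790M 1 highest and T790M 4 lowest. Lymphatic endothelial genes fell in 4 of 5 (Lyve1 -3.26), fibroblast genes in 12 of 15 (median -1.77), smooth muscle and pericyte genes in 12 of 14 (median -1.22) and mesothelial genes in 8 of 8 (median -2.58). Tcf21, the factor of lung lipofibroblasts, read 9.20, 6.67, 9.51, 6.70 and 7.75 against 10.59 to 11.78 (-3.25 ± 0.59). Acta2, smooth muscle actin, read 11.71, 10.98, 10.76, 10.85 and 11.25 against 12.09 to 12.77 (-1.23 ± 0.22). Without T790M 1 the counts were 22 for endothelial, 12 for fibroblast, 12 for smooth muscle and pericyte and 6 for mesothelial genes. Fgf10, the growth factor of lung mesenchyme, and the pericyte gene Cspg4 differed by -0.04 and -0.29 and did not pass.

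Cardiac muscle and fat genes depended on the tumour. Of 10 cardiac genes 8 fell and 1 rose (median -2.43); 5 fell without T790M 4. Actc1, cardiac actin, read 12.49, 7.31, 9.18, 7.14 and 10.10 in T790M 1 to 5 and 12.04 to 12.49 in FVB normals, so T790M 1 was at the normal level and the others were below every normal (-3.05 ± 0.72). Myh7, a myosin heavy chain, went the other way, at 9.97 to 11.73 against 9.54 to 9.77 (1.08 ± 0.41), but lost its call without any of the FVB normals or T790M 1, 2 or 5. All 4 measured adipose genes fell. Adipoq, the fat hormone adiponectin, read 7.91, 4.98, 4.38, 4.81 and 6.09 against 8.39 to 9.49 (-3.18 ± 0.50), again highest in T790M 1.

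**Figure D3:**
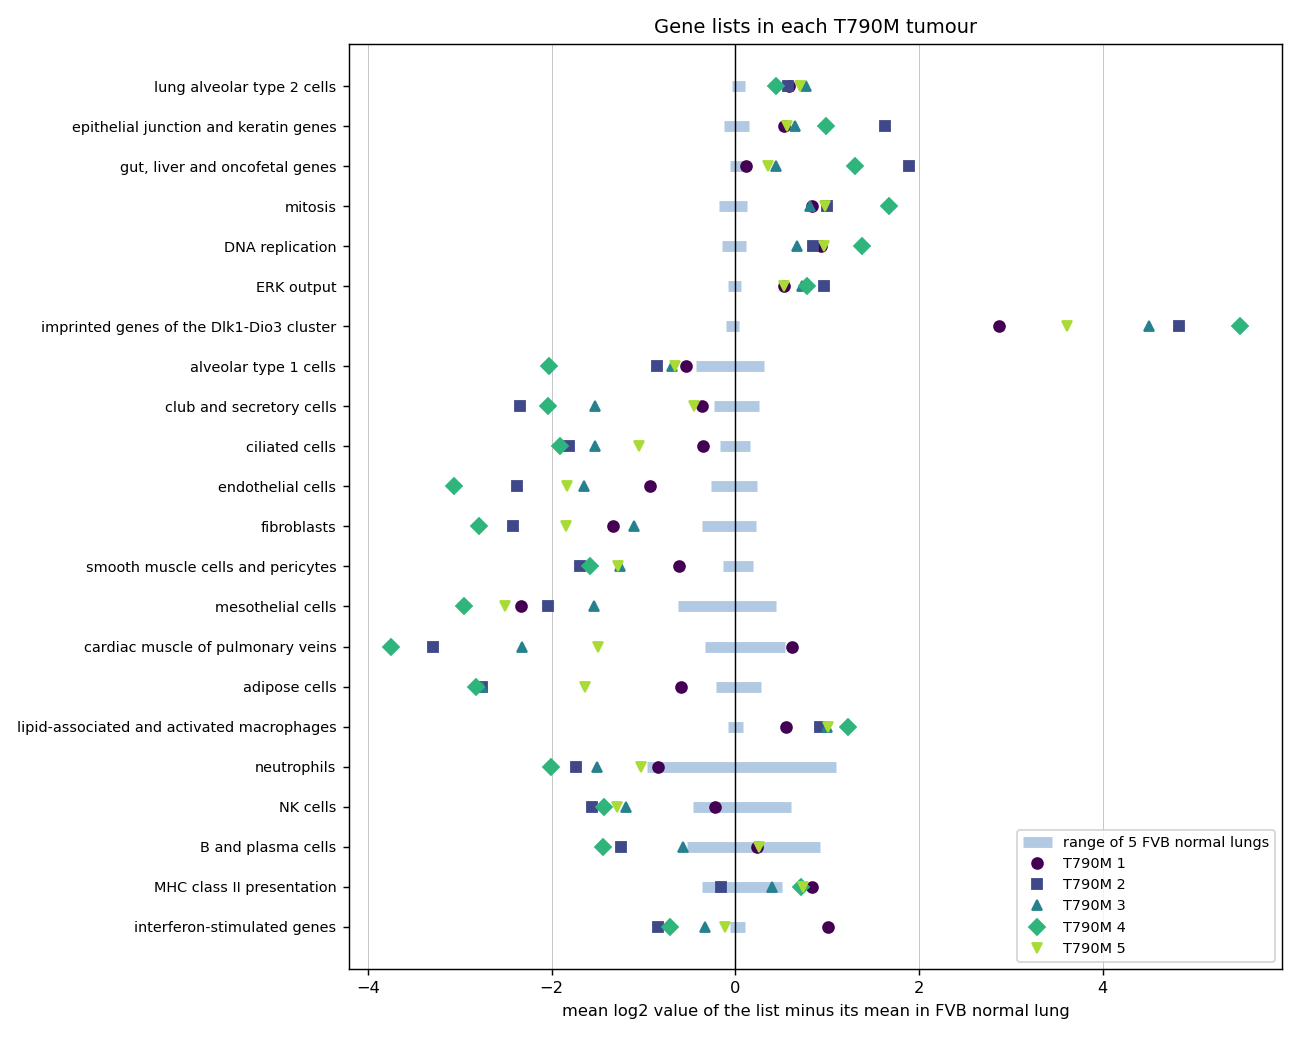
Symbols give, for each T790M tumour, the mean log2 value of a gene list minus its mean over the 5 FVB normal lungs, and blue bars span the 5 normal lungs. T790M 1 was at -0.93 for endothelial genes where T790M 4 stood at -3.06, but all 5 tumours lay at 0.44 to 0.77 for alveolar type 2 genes.

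Leukocyte genes went in several directions. Macrophage genes of the lipid-associated and activated kind rose in 5 of 9 and fell in 1 (median 0.57): Mmp12, the macrophage elastase, read 9.09, 9.11, 10.29, 10.63 and 9.95 in T790M 1 to 5 and 6.38 to 7.64 in FVB normals (2.88 ± 0.47), and Gpnmb rose by 1.72. Arg1, the arginase of activated macrophages, read 6.80, 9.49, 7.09, 12.09 and 8.12 against 5.54 to 6.39 (2.85 ± 0.73), so T790M 4 stood far above the other tumours. Alveolar macrophage genes showed no common direction, with 1 of 13 up and 2 down (median 0.04), or 2 up without T790M 2: Pparg, the lipid-sensing receptor these cells need, rose by 0.74, Krt79 and Cidec fell by 1.71 and 1.29 on the log2 scale, and Chil3 and Siglecf, defining genes, differed by 0.01 and 0.19 and did not pass. Neutrophil genes fell in 6 of 9 (median -1.07), T cell genes in 9 of 11 (median -0.56), NK cell genes in 10 of 11 (median -1.0) and B and plasma cell genes in 4 of 11 (median -0.41). S100a8, a neutrophil calgranulin, read 10.88, 8.33, 8.91, 7.18 and 9.72 against 11.66, 13.97, 10.62, 10.32 and 13.98, with overlap and with normals that themselves differed widely (-3.11 ± 0.94). Red cell genes fell in 2 of 3, or in 1 without FVB normal 1, FVB normal 4 or T790M 2.

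Antigen presentation by MHC class II rose in part. Of 9 genes 5 were higher and 0 lower (median 0.41), or 1 lower without T790M 1. H2-Eb1, the beta chain of the E molecule, read 10.67, 10.13, 10.36, 11.15 and 10.51 in T790M 1 to 5 and 8.41 to 9.29 in FVB normals (1.81 ± 0.44), but with all 10 normal lungs as the control it differed by 0.39 (adjusted p = 0.659), and Ciita, the factor that switches the group on, rose by 1.03. Interferon-stimulated genes did not move together: 1 of 16 rose, 1 fell (median -0.31), and their mean in T790M 1 was 1.01 above the normal mean while in T790M 2 it was 0.84 below it. The riser was Mx1, an antiviral GTPase, at 6.77 to 8.70 against 5.78 to 6.22 (2.02 ± 0.47); the call of the gene that fell, Mx2 (-0.32), was lost without any FVB normal or T790M 2 or 3. Complement genes rose in 2 of 14 (14.3%, against 21.9% of all genes) and fell in 3 (21.4%, against 17.9%), or rose in 5 without T790M 2. Cfi, the inhibitor of complement, read 8.01, 11.62, 9.30, 11.33 and 9.06 against 7.59 to 7.88 (2.13 ± 0.46). Chemokine genes rose in 4 of 21 and fell in 3 (median 0.26): Cxcl3 and the monocyte chemokine Ccl6 (0.64) were among the first, Ccl5 (-1.91), of cytotoxic lymphocytes, and Cxcl12 (-2.10), of stroma, among the last, the Cxcl12 call being lost with the median over its probe sets (-0.97, adjusted p = 0.131).

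Genes of the EGFR pathway were examined in order from ligand to target. Of 12 receptors and ligands of the family 6 rose and 2 fell (median 0.24). Ereg, epiregulin, read 8.29, 10.19, 9.63, 5.74 and 8.91 in T790M 1 to 5 and 4.95 to 6.09 in FVB normals, a 9.82-fold difference (3.30 ± 0.52, adjusted p = 3.73e-05) to which T790M 4 added little. Egf (0.84) and Btc (0.58) rose, the latter a call lost without FVB normal 2, 3 or 4 or T790M 1, 2 or 5, whereas Hbegf, Tgfa and Epgn differed by 0.20, 0.21 and -0.07 and did not pass. Of the receptors, Erbb3, the partner that lacks a strong kinase of its own, read 9.99, 11.20, 10.10, 10.41 and 10.23 against 8.99 to 9.47 (1.19 ± 0.18), and Erbb2 rose by 0.64. The brightest of 7 probe sets for mouse Egfr fell from 9.0 to 9.20 in normals to 8.75 to 8.90 in tumours (-0.29 ± 0.06). Of the other 6, dimmer probe sets, 4 were also called lower, by up to -1.78, and 2 did not pass (-0.06 and 0.09). Whether any of them detects the human transgene was not tested.

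ERK target genes were raised in all 5 tumours. Of 19 genes 16 rose and 1 fell (median 0.67), and 13 had every tumour above every normal, against 17.0% of all genes. Dusp4, a phosphatase that turns ERK off, read 10.18, 10.76, 10.83, 10.84 and 10.09 in T790M 1 to 5 and 8.21 to 8.81 in FVB normals (2.11 ± 0.26). Spred1, an inhibitor of RAS signals, read 10.87, 11.65, 11.33, 11.99 and 10.96 against 9.74 to 10.17 (1.41 ± 0.17), and Etv4, an ETS factor, 8.61, 8.73, 8.71, 9.59 and 8.84 against 7.31 to 7.54 (1.43 ± 0.23). The growth factor target Myc was at 8.10 to 9.09 against 7.32 to 7.56 (1.13 ± 0.13). Tumours and normals were fully apart for each of these 4 genes. Dusp6, Spry2 and Spry4 rose by 0.73, 1.00 and 0.67, and Ier3, a stress-linked early gene, fell (-0.85 ± 0.23).

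Immediate early transcription factors, which respond within minutes to growth signals and to handling of tissue, did not follow the ERK targets. Of 14 genes 5 fell and 2 rose (median -0.28), or 1 rose without FVB normal 4. Jun read 11.31, 9.92, 10.72, 9.76 and 10.37 against 11.75 to 12.19 (-1.56 ± 0.23), Klf4 10.95, 9.61, 9.71, 8.07 and 9.87 against 11.54 to 12.22 (-2.29 ± 0.35), and Klf2, a flow-responsive factor of endothelium, differed by -2.08. Egr2 rose by 0.95 and Fos and Egr1 differed by -0.65 and -0.18 without passing. Heat shock genes, also sensitive to handling, fell in 5 of 14 and rose in 1 (median -0.48): Hspa1a read 7.32, 6.86, 8.05, 8.77 and 7.15 in tumours and 12.31, 8.30, 11.19, 12.33 and 9.44 in normals, where it varied far more (-3.08 ± 0.82). Without FVB normal 2, 8 of these genes fell; the single rise, of Hspe1, was lost without FVB normal 2, 3 or 5 or T790M 2 or 4, and 2 genes rose without FVB normal 4. The part of tissue handling in these values was not tested.

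Other receptor tyrosine kinases went both ways. Of 21 genes 5 rose (23.8%, near the 21.9% of all genes) and 8 fell (38.1%, against 17.9%), with a median of -0.18. Beside Ros1, the epithelial receptors Met and Fgfr2 rose: Met, the receptor of hepatocyte growth factor, was at 11.51 to 11.96 against 10.35 to 10.76 (1.18 ± 0.19), and Fgfr2, the receptor for FGF signals from mesenchyme, read 12.34, 11.51, 12.69, 12.49 and 12.42 against 10.76 to 11.17 (1.43 ± 0.24). Kit, of capillary and mast cells, fell from 11.24 to 11.72 in normals to 7.53 to 10.59 in tumours (-2.59 ± 0.53), as did the mesenchymal receptors Pdgfra (-2.33) and Ddr2 (-1.37). Fgfr3 (-1.89) and Fgfr4 (-1.46), further FGF receptors, fell too, as did Igf1r (-0.82). Mst1r, Ret and Alk differed by -0.19, 0.03 and 0.25 and did not pass.

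Proliferation genes rose in every tumour. Of 28 mitosis genes 22 were higher and 0 lower (median 1.09), and of 29 DNA replication genes 24 and 0 (median 1.05), against 21.9% and 17.9% of all genes. Cdk1, the mitotic kinase, read 9.13, 9.65, 9.07, 10.12 and 9.27 in T790M 1 to 5 and 7.14 to 7.53 in FVB normals (2.09 ± 0.33). Uhrf1, which copies DNA methylation at replication forks, read 8.29, 8.23, 7.73, 9.31 and 8.32 against 5.77 to 6.47 (2.20 ± 0.30). Mcm6, a subunit of the replicative helicase, read 9.86, 9.62, 9.15, 10.20 and 9.86 against 7.57 to 8.12 (1.86 ± 0.30), and Rrm2, of the enzyme that makes deoxynucleotides, 9.75, 9.12, 9.26, 9.72 and 9.56 against 7.05 to 8.10 (1.75 ± 0.34). T790M 4 had the highest value of all but Rrm2. Birc5, the chromosome passenger protein survivin, and Ube2c, an enzyme of the anaphase-promoting complex, rose by 1.82 ± 0.34 and 1.81 ± 0.42. Foxm1 and Tpx2, also of the mitosis list, differed by -0.04 and -0.18 and did not pass, and with the median over their probe sets they were 0.31 and 0.31 higher and passed. T790M 1, the tumour nearest to normal lung elsewhere, was 0.84 above the normal mean for the mitosis list and 0.93 for DNA replication, within the span of T790M 2, 3 and 5.

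The 250 bases upstream of the start of the 3 highest members of each list are shown, because many cell cycle genes carry short shared motifs there. They come from the RefSeq promoter table of build GRCm38.p6, which held 23 of the 28 mitosis and 24 of the 29 DNA replication genes, and the first start listed was taken. Capitals mark each match, on either strand, of the CCAAT box, of the cell cycle homology core TTTGAA, and of 2 motifs of the kind bound by E2F factors, which are TTCCCGC as the first and the related TTGGCGC as the other. Matches may overlap. Cdk1 lies at chr10:69352913-69353162 (minus strand), Birc5 at chr11:117848987-117849236 (plus) and Ube2c at chr2:164769679-164769928 (plus) for mitosis. Uhrf1 at chr17:56303087-56303336 (plus), Mcm6 at chr1:128359706-128359955 (minus) and Rrm2 at chr12:24708004-24708253 (plus) stand for DNA replication. Sequences run 5′ to 3′ toward the gene.
Cdk1: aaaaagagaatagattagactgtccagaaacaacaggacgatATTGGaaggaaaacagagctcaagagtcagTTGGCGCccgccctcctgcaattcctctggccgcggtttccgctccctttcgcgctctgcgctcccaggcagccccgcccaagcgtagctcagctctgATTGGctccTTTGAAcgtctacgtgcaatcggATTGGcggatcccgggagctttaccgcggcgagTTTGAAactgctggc
Birc5: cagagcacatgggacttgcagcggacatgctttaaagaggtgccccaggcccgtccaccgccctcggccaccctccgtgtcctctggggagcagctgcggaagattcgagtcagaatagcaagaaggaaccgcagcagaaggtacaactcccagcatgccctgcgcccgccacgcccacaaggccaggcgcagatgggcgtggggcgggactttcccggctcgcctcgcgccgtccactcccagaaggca
Ube2c: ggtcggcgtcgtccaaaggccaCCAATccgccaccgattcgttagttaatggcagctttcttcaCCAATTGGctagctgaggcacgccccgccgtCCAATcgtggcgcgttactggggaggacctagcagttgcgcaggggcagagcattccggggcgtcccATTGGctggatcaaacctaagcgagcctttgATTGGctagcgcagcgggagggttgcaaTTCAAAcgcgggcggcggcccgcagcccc
Uhrf1: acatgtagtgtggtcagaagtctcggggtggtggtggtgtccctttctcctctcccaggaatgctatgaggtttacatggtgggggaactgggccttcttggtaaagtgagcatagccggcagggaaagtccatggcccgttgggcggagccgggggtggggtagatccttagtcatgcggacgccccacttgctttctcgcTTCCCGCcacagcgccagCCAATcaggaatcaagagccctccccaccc
Mcm6: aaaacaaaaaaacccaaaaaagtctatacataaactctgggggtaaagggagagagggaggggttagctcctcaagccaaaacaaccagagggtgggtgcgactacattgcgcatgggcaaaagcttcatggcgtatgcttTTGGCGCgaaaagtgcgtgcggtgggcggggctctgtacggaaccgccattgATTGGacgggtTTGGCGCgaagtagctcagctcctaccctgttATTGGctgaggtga
Rrm2: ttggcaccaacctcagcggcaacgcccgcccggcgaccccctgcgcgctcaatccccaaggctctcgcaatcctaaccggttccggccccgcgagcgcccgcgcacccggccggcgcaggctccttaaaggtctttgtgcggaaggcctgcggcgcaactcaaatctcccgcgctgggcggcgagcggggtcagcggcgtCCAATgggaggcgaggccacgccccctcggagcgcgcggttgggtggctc
CCAAT, which is a binding motif of the factor NF-Y, occurred 6 times in the Ube2c window, 3 times in Cdk1, 2 times in Mcm6 and 1 time each in Uhrf1 and Rrm2. It was found in 18 of the 23 mitosis promoters (78.3%) and 14 of the 24 DNA replication promoters (58.3%), against 34.5% of all 27025. TTTGAA was found in 8 of 23 (34.8%) and 3 of 24 (12.5%), against 16.3% of all. TTCCCGC was found in 0 of 23 and 7 of 24 (29.2%), against 3.84%, and TTGGCGC in 2 of 23 (8.70%) and 3 of 24 (12.5%), against 2.05%. A match is a description of the letters and not of binding, and the Birc5 window held none of the 4.

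Cell cycle inhibitors and p53 target genes did not move as a group. Of 17 genes 4 were up (23.5%) and 3 down (17.6%), near the 21.9% and 17.9% of all genes. The median was 0.15, and 2 were up without T790M 4. Gadd45a and Zmat3, p53 targets, rose by 0.90 and 0.81, and Cdkn2d, an inhibitor of CDK4 and CDK6, and Sesn1 fell by 0.86 and 0.89 on the log2 scale. Cdkn1a, the p21 gene, was at 10.82 to 11.36 against 10.41 to 11.08 (0.32 ± 0.16, adjusted p = 0.108). The call of Cdkn2c (-0.76) was lost without FVB normal 1, 2 or 3 or T790M 2 or 4.

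Biosynthetic genes rose with proliferation. Ribosome biogenesis genes were higher in 15 of 18 and lower in 0 (median 0.56; Nop58 0.96, Pes1 0.88), and their mean was most raised in T790M 4 (1.01) and T790M 2 (0.68). Genes of the ATF4 amino acid and folate response rose in 12 of 20 and fell in 2 (median 0.51). Psat1, of serine synthesis, read 9.59, 10.64, 9.61, 10.00 and 9.85 in T790M 1 to 5 and 7.24 to 7.79 in FVB normals (2.41 ± 0.19, adjusted p = 9.38e-09), Aldh18a1, of proline synthesis, 8.86 to 9.47 against 7.41 to 7.77 (1.60 ± 0.19). Aldh1l2, of mitochondrial folate metabolism, was at 7.60 to 8.56 against 6.38 to 6.78 (1.47 ± 0.16). The stress factor Ddit3, which ATF4 also switches on, fell instead (-0.64), and Chac1, another such target, differed by 0.05 and did not pass. Arginine and polyamine genes rose in 8 of 12 and fell in 0 (median 0.60): with both arginases went Azin1 (1.01), which stabilises ornithine decarboxylase, and Srm (0.82), spermidine synthase.

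Glycolysis genes rose in 8 of 15 (median 0.57) and 1 fell, Pfkfb3 (-0.99), a call lost without T790M 4; without T790M 3, 2 fell. Hk2, the hexokinase of proliferating cells, read 10.48, 10.74, 10.25, 10.37 and 10.23 against 8.18 to 8.79 (1.88 ± 0.25), and Ldha rose by 1.19. Hypoxia response genes gave 3 up of 13 (23.1%, near the 21.9% of all genes) and 1 down (7.69%, against 17.9%), with a median of 0.23. Without T790M 2 or FVB normal 3, 1 was up. Ankrd37 rose by 1.86 and Vegfa, the vascular growth factor, fell by 0.71 on the log2 scale. Respiratory chain genes rose in 12 of 19 (median 0.30; Cyc1 0.80) and fell in 3, Cox7a1 (-1.83), the muscle form of a cytochrome oxidase subunit, Cox4i2 (-0.88), a smooth muscle and lung form, and Cox6a1 (-0.59). Of 19 lipid synthesis genes 7 rose and 1 fell (median 0.16), or 2 fell without FVB normal 5 or T790M 2: Me1, the malic enzyme, read 11.20 to 11.75 against 9.54 to 10.27 (1.77 ± 0.22), Fasn, fatty acid synthase, rose by 0.87 and the cholesterol gene Idi1 fell (-0.83). Genes of NRF2 and glutathione rose in 4 of 19 (21.1%) and fell in 3 (15.8%), near the 21.9% and 17.9% of all genes. Their median was 0.01, and 5 fell without T790M 2. Their typical target Nqo1 differed by -0.34 and did not pass, and Hmox1 rose by 1.01.

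Prostaglandin and leukotriene genes fell in 8 of 22 and rose in 3 (median -0.25). Ptgs2, the inducible cyclooxygenase, read 7.81, 5.53, 6.02, 5.30 and 6.32 in T790M 1 to 5 and 8.20 to 9.25 in FVB normals (-2.48 ± 0.47), Ptgis, prostacyclin synthase, differed by -2.30 and Slco2a1, the prostaglandin importer, by -1.25. Both the inducible synthesis gene and the degrading gene Hpgd were therefore lower. Ptger3, a prostaglandin E receptor, read 6.07, 6.18, 8.08, 10.06 and 8.97 against 5.66 to 6.28 (1.96 ± 0.61); tumours 1 and 2 were within the normal range, and the call was lost without T790M 4.

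Developmental signalling genes were lower more often than higher. Of 14 NOTCH genes 10 fell and 0 rose (median -0.89; the receptor Notch4 -1.90, the ligand Dll1 -1.61), and Hey1, a NOTCH target of vessels, read 9.32, 8.64, 8.94, 8.37 and 8.72 against 10.26 to 10.86 (-1.79 ± 0.28). BMP genes fell in 9 of 18 and rose in 3 (median -0.53). Smad6, an inhibitor that BMP itself induces, read 10.73, 9.52, 9.48, 8.51 and 9.01 against 12.44 to 12.90 (-3.17 ± 0.38), and the endothelial receptor Acvrl1 differed by -2.73, but the ligands Bmp2 and Bmp4 rose by 1.26 and 0.97 and the target Id2 by 1.22. WNT genes fell in 11 of 26 and rose in 5 (median -0.30). Wif1, a secreted inhibitor, read 7.70, 4.98, 6.05, 3.79 and 8.66 against 8.18 to 9.90 (-2.76 ± 0.71), with T790M 5 inside the normal range, and the receptor Fzd7 was at 10.03 to 11.65 against 9.20 to 9.63 (1.36 ± 0.26). Axin2 and Notum, feedback targets of the pathway, differed by -0.76 and -0.57, and both were called.

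Matrix genes went both ways. Collagen genes fell in 7 of 19 and rose in 2 (median -0.35): Col4a3 to Col4a6, the network-forming chains of special basement membranes, all fell (-0.97, -0.77, -1.33 and -0.85; Col4a4 not without FVB normal 1, 2 or 3 or T790M 4), the common chains Col4a1 and Col4a2 differed by -0.06 and -0.10 without passing, and Col18a1 read 9.80, 11.98, 10.44, 12.74 and 10.11 against 8.87 to 9.47 (1.88 ± 0.46). The other rise, of Col15a1 (0.97), was lost when any of the arrays but T790M 1 was left out. Integrin and laminin genes rose in 5 of 23 (21.7%, the share of all genes being 21.9%). They fell in 6 (26.1%, against 17.9% of all genes), with a median of -0.26. Lamb3, a chain of an epithelial laminin, read 11.81, 12.39, 12.32, 12.38 and 12.18 against 8.84 to 9.55 (3.03 ± 0.25, adjusted p = 2.6e-08), and Itga9 10.31 to 11.29 against 9.09 to 9.45 (1.56 ± 0.38), while Itga8, of mesenchyme, differed by -2.77. Matrix protease and inhibitor genes fell in 8 of 17 (Mmp2 -1.43, the plasminogen activator gene Plat -1.85) and rose in 2, Mmp14 (0.61) and Ctsk (1.01), each a call that some arrays decided: 0 rose without FVB normal 3 or 4 or T790M 3 or 5 and 1 without any other array. Circadian clock genes fell in 5 of 17 and rose in 1 (median 0.06), or fell in 3 without FVB normal 1 or 5 or T790M 4, and 2 rose without T790M 1 or 4. Bhlhe40, a repressor of the clock, rose by 1.27.

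Some genes varied widely among the 5 tumours. They were picked for their SD among T790M tumours, after the values were seen, and that spread was not tested. In the comparison with FVB normals, Dcpp1 and Cltrn were called higher, calls lost in 9 and 7 of the alternatives. The other genes named here and in the next paragraph were not called. Sox2, a factor of airway progenitors, read 10.45, 4.91, 10.51, 4.72 and 10.80 in T790M 1 to 5 and 8.57 to 9.30 in FVB normals. Cckar, a cholecystokinin receptor, read 11.44, 4.90, 9.23, 4.94 and 11.45 against 9.39 to 9.98, and Tbx1, a T-box factor, 9.37, 5.81, 10.04, 6.06 and 9.36 against 7.66 to 8.01. In all 3 genes, and in the amino acid transporter gene Slc6a20a (9.31, 5.33, 9.48, 4.97 and 10.20 against 7.78 to 9.05), tumours 2 and 4 were below every normal lung, while tumours 1 and 5 were above. Tumour 3 was above the normals for Sox2, Tbx1 and Slc6a20a, but just below the lowest of them for Cckar. L858R+T790M tumours had Sox2 at 4.27 to 6.55.

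Other genes were high in tumours 2 and 4. Gkn2, a secreted protein of the stomach, read 6.08, 13.87, 6.61, 11.35 and 6.59 against 5.99 to 6.55, and Apoc1, an apolipoprotein, 9.36, 13.54, 10.78, 13.71 and 9.97 against 10.08 to 10.69. Cltrn, collectrin of the kidney, read 3.98, 10.01, 6.36, 12.12 and 4.45 against 3.82 to 4.11, and Cldn6, a claudin of embryonic epithelia, 5.37, 9.64, 5.57, 8.09 and 5.57 against 5.62 to 5.76. A few stood high in 1 tumour: Dcpp1 (13.89 in T790M 4, 4.88 to 7.21 in the other tumours), Atoh1, a factor of secretory and sensory cells (10.93 in T790M 4, 6.17 to 6.62), Guca2a, the gut peptide guanylin (11.82 in T790M 2, 6.96 to 7.87), and Tpsab1, a mast cell tryptase (10.84 in T790M 2, 5.95 to 6.44). No label separates these tumours.

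**Figure D4:**
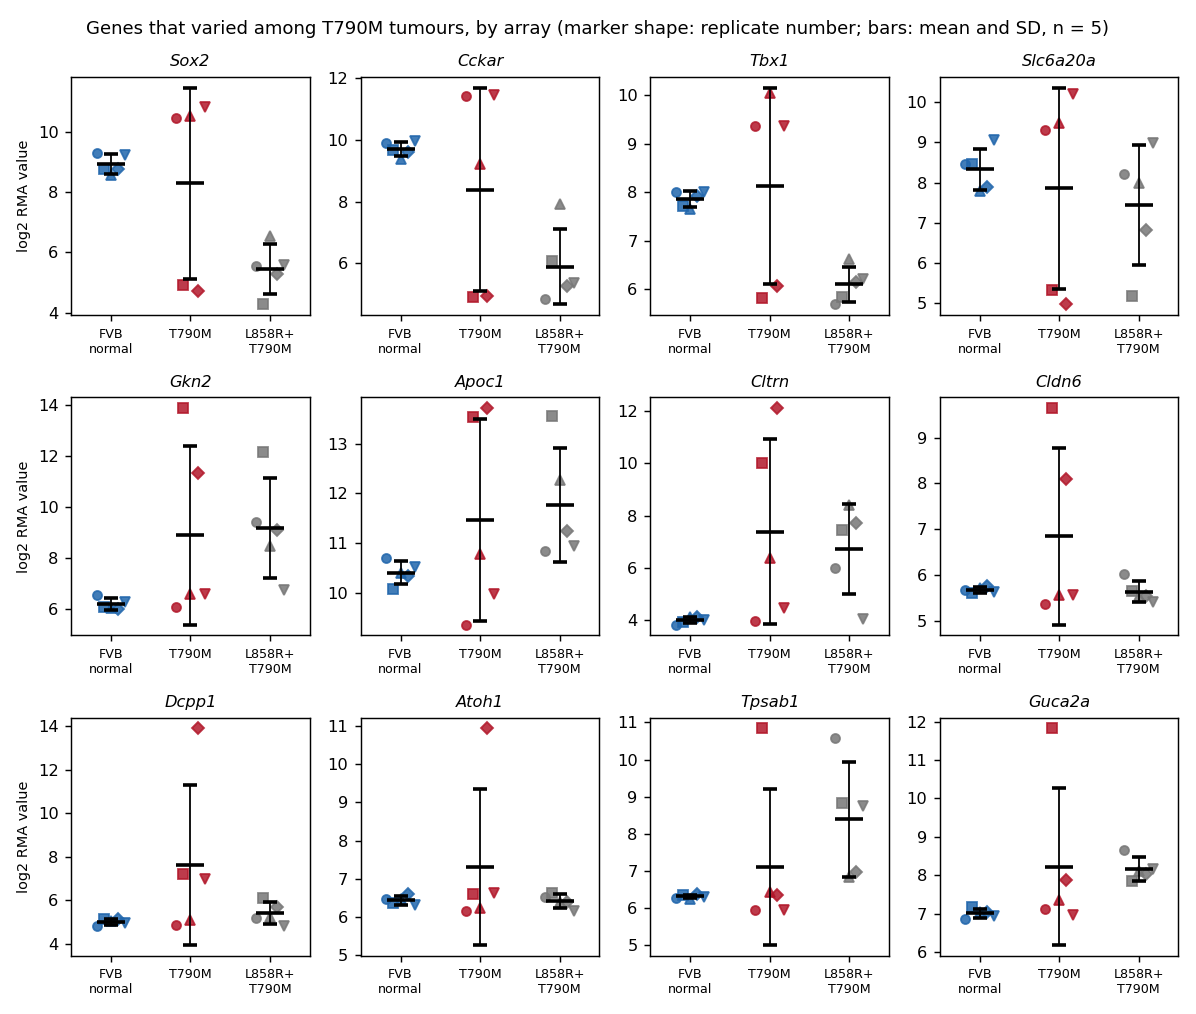
Points are log2 RMA values of single arrays for 12 genes that varied among T790M tumours (red), with FVB normal lungs (blue) and L858R+T790M tumours (grey); the marker shape gives the replicate number, and black bars the mean and SD (n = 5). Sox2 lies at 4.72 and 4.91 in 2 T790M tumours and at 10.45 to 10.80 in the other 3.

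T790M tumours were then set against L858R+T790M tumours, directly, as both carry the strain label FVB. Few genes differed: 150 were higher (0.824%) and 139 lower (0.764%) in T790M tumours. These calls rested on the spread pooled with the normal lungs. In a limma fit to the tumours of these 2 groups alone 0 genes were called (1857 at an unadjusted p under 0.05). Without L858R+T790M 1 or 5 or T790M 4 the count of 289 became 62, 151 and 168, while without L858R+T790M 2 or T790M 2 it became 439 and 485.

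Some ligands of EGFR were lower with T790M alone. Ereg, whose T790M values are given above, read 12.45, 11.45, 10.87, 11.73 and 11.91 in L858R+T790M 1 to 5 (-3.13 ± 0.52, adjusted p = 0.00550), with no overlap. Hbegf was at 8.67 to 10.03 in T790M tumours, at 8.62 to 9.32 in normal lung and at 9.89 to 10.38 with both changes (-1.08 ± 0.19); T790M 2, at 10.03, lay above the normals and within the range of L858R+T790M tumours. Epgn was at 6.52 to 6.97, with normal lung at 6.79 to 6.98, and at 7.36 to 8.23 with both (-0.95 ± 0.14). Lif (-0.88) and Egr2 (-0.63) of the ERK and early gene lists were lower as well, the latter a call that 7 of the 10 arrays decided, but the 19 ERK genes had a median of -0.02. Egfr itself was 0.28 lower, a call lost without L858R+T790M 5.

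DNA replication genes were higher with T790M alone, 7 of 29 with 0 lower and a median of 0.61 (all genes 0.824% higher). Uhrf1 was at 6.80 to 7.60 in L858R+T790M tumours, below every T790M tumour (1.21 ± 0.30, adjusted p = 0.0458), and Mcm6 at 7.77 to 9.23, overlapping with 1 of them (1.23 ± 0.30). The other 5 were Mcm2 (0.88), Mcm4 (0.83), Prim1 (0.82), Dut (0.73) and Ccne2 (0.95). All 7 calls were lost without L858R+T790M 1, L858R+T790M 5 or T790M 4. Mitosis genes had a median of 0.62 and 0 of 28 calls: Cdk1 was at 7.28 to 9.24 in L858R+T790M tumours (1.17, adjusted p = 0.0725). Cks1b, a CDK subunit, was at 11.92 to 12.84 against 10.40 to 11.79 (1.11 ± 0.22), a call lost without L858R+T790M 1. Cenpw, a centromere protein, was at 6.63 to 8.36 against 5.72 to 6.55 (1.15 ± 0.22). The Cenpw call was kept without each single array, but not in the fit to both tumour groups alone.

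In the list of cell cycle inhibitors and p53 targets 4 of 17 genes were lower and 0 higher, against 0.764% of all genes lower. The median of the list was only -0.14, so most members differed little. Cdkn1a was at 11.60 to 12.11 in L858R+T790M tumours, above all T790M tumours and all FVB normals (-0.77 ± 0.16), a call lost without L858R+T790M 1. Cdkn2b, which encodes p15, was at 10.36 to 11.28 in L858R+T790M tumours against 8.98 to 9.84 (-1.15 ± 0.16, adjusted p = 0.00118 in limma). The Cdkn2b call was kept without each single array, but not in the fit to both tumour groups alone. Cdkn2a differed by -0.61 and the p53 target Eda2r by -0.66, calls that were lost without several arrays. ATF4 genes were higher in 3 of 20 (Asns 0.88 ± 0.16, Aldh1l2 1.05 ± 0.16, Atf5 0.81). The Atf5 call was lost without any of 6 arrays, while Asns and Aldh1l2 kept theirs without each array. Asns, asparagine synthetase, read 10.29, 9.38, 9.82, 10.27 and 10.12 with T790M alone, 8.98 to 9.18 with both changes and 8.81 to 9.15 in normal lung. Its T790M values lay above all arrays of both other groups.

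**Figure D5:**
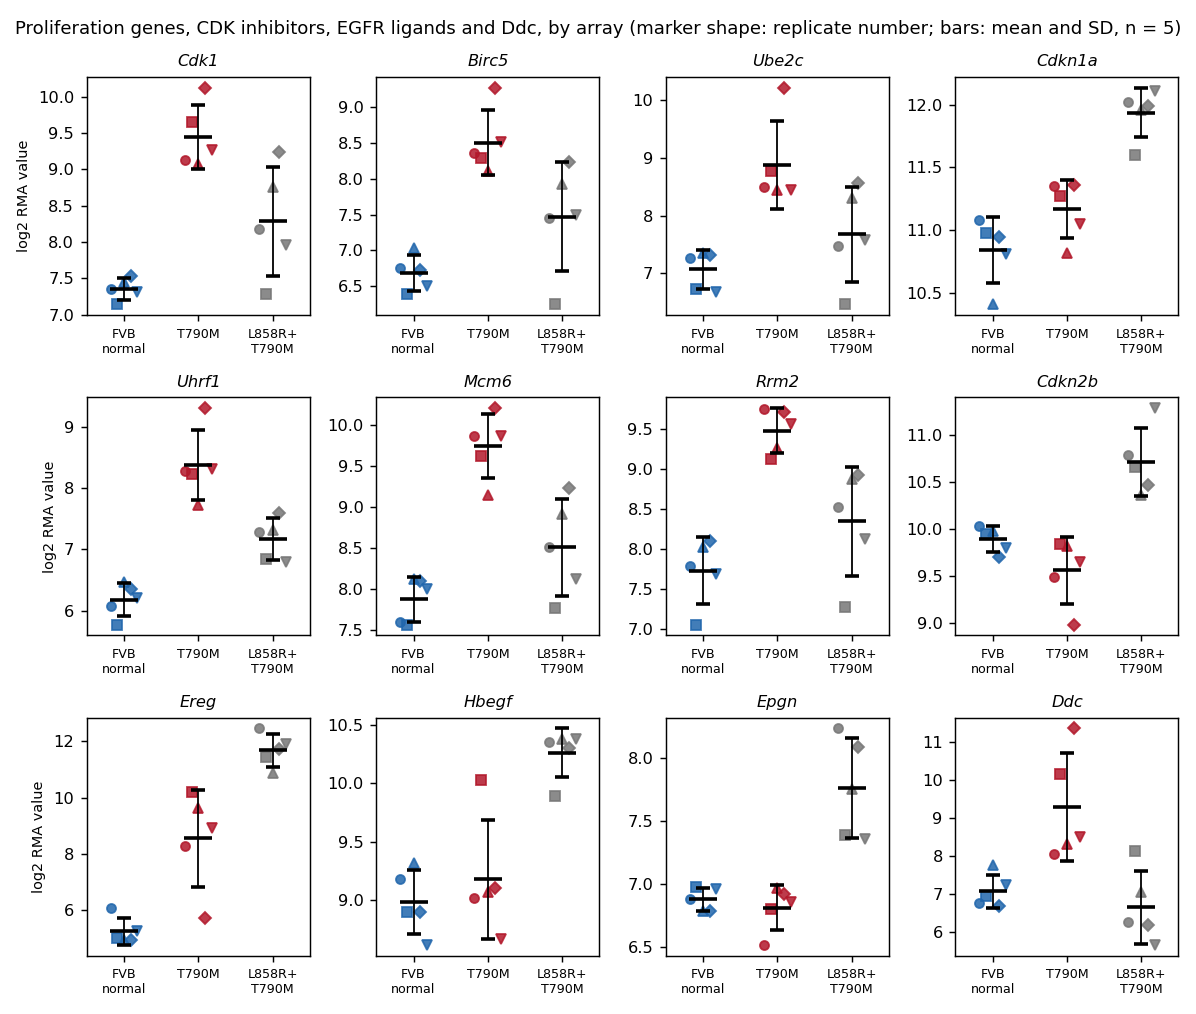
Points are log2 RMA values of single arrays in FVB normal lungs (blue), T790M tumours (red) and L858R+T790M tumours (grey), for 6 proliferation genes, the cell cycle inhibitor genes Cdkn1a and Cdkn2b, 3 EGFR ligand genes and Ddc; the marker shape gives the replicate number, and black bars the mean and SD (n = 5). Cdkn2b lies at 8.98 to 9.84 in T790M tumours and 10.36 to 11.28 in L858R+T790M tumours.

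Other large differences from L858R+T790M tumours concerned single genes. Marco, a scavenger receptor of macrophages, read 7.46, 7.60, 8.81, 7.94 and 6.80 with T790M alone and 12.11, 9.50, 9.31, 9.97 and 11.97 with both changes (-2.85 ± 0.52). Slc26a4, the anion exchanger pendrin, was at 8.79 to 8.93 against 10.46 to 11.89 (-2.34 ± 0.35), and Gpc6, a glypican, at 6.69 to 7.21 against 8.13 to 9.15 (-1.59 ± 0.18, adjusted p = 0.000159). The remaining genes at that end were Tubb2b (-1.40), Slc25a30 (-1.35), Rab3c (-1.26) and Ccdc83 (-1.23). Higher with T790M alone were Elapor1 (1.62), the glutathione transferase gene Gsta3 (1.34), the protease gene Adam28 (1.32) and Rassf9 (1.15). Among all of these, Rab3c lost its call without L858R+T790M 1, and the others kept theirs without each array. Npy2r, among the largest rises over normal lung, read 5.03, 7.17, 3.98, 4.64 and 3.90 in L858R+T790M tumours (2.76 ± 0.63), a call lost without L858R+T790M 1, 3, 4 or 5 or T790M 3 or 4. 

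Against L858R tumours only the effects could be compared, each over the normal lungs of its own strain. The T790M effect was higher for 39 genes (0.214%) and lower for 37 (0.203%). The total of 76 became 50 without FVB normal 2, 145 without T790M 2 and 167 without L858R 3. Ddc, which makes dopamine and serotonin, read 8.05, 10.15, 8.32, 11.35 and 8.49 in T790M 1 to 5 and 6.68 to 7.75 in FVB normals (2.20 ± 0.52), while L858R tumours differed from theirs by -1.72; the effects differed by 3.92 ± 0.76 (adjusted p = 0.0187). L858R+T790M tumours had it at 5.65 to 8.11 (2.63 ± 0.52 for the direct difference, a call lost without L858R+T790M 1). The other, dimmer Ddc probe set differed by 0.04 between T790M tumours and FVB normals and did not pass. Apoe, an apolipoprotein of macrophages and type 2 cells, rose by 0.79 ± 0.20 in T790M tumours, with an effect 1.46 above that of L858R. Asns had an effect 1.29 higher. The p21 gene Cdkn1a had a difference in effect of -1.22, and for Krt79 the difference was -3.19. For some of the 16 genes with the largest such differences the T790M effect itself did not pass. These were Zfp874a (-0.06, against -1.34 for L858R), Dact1 (-0.25 and -1.47), Cd200r4 (0.25 and 3.26), Ms4a8a (0.03 and 2.61), Vstm2a (-0.19 and 1.90), Rab3c (-0.05 and 2.18), Pcdh18 (-0.45 and -1.91), Wfdc21 (-0.61 and 2.43) and Acot1 (-0.60 and 1.74). For Pcdh18, Wfdc21 and Acot1 the effects differed by 1.46, -3.04 and -2.34. Sdc2, Hpse and Slc15a2, also among the 16, passed in T790M tumours themselves. Against FVB normals Sdc2 was called lower, and Hpse and Slc15a2 were called higher. For these genes the T790M and L858R effects differed by 1.34, 1.22 and -1.90. Wfdc21 and Acot1 lost their calls without most single arrays, Dact1, Hpse, Cd200r4 and Pcdh18 without 8, 4, 2 and 1 of them.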

How the data were processed

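Total RNA of 24 mouse lung samples was hybridised to Affymetrix mouse genome arrays. The deposited log2 values are RMA signals, per the submitters' processing notes; no source used here gives the version, the settings or which arrays were normalised together. Of 45101 probe sets, 34945 had 1 gene in the platform annotation, 932 several and 9160 none (64 are controls); 34741 symbols were updated through RefSeq. Each of 18193 genes was read from its brightest probe set over all arrays. Of 98 called genes named in the text with several probe sets, the others were all called the same way for 70, none was called the opposite way, and for 15 no other was called.

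A linear model with a mean for each of the 5 groups was fitted in limma (version 3.58.1, R version 4.3.3), with a trended prior and Benjamini-Hochberg adjustment. Data were also simulated for the tumour and normal groups. There 95 of 100 genes changed by 1 on the log2 scale were called, and 97 of 100 changed by 2. Of 205 calls 13 were false (6.34%). These rates describe the simulated data only. In the measured data 81.8% of genes had a higher SD in tumours, and the rate of false calls there was not tested. Genes named were the 15 largest called rises and falls with groups apart, the 8 at each end of the other comparisons, members of 51 gene lists (821 entries, 767 measured) and, as stated there, variable genes. The comparison and the lists were chosen with earlier results of these data known. Alternatives covered scaling, probe set choice, filtering, array weights, controls, sex, replicate block and each array left out.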

Additional observations from a re-analysis of the deposited data

Results flagged for a closer look

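In 27 of 488 groups of 5 arrays, over the genes named in the report, 1 array lay far from the other 4 by Dixon's test, and chance alone gives about 1 in 20. Some of these genes, among them Dcpp1, Atoh1, Guca2a and Tpsab1, were named for their spread among the same T790M tumours. For such genes the outcome was partly set by that choice, and the chance rate does not apply. A single T790M tumour was high for Atoh1 (10.93 in T790M 4, 6.17 to 6.62 in the others), Dcpp1 (13.89 in T790M 4, 4.88 to 7.21 in the others), Etv4 (9.59 in T790M 4, 8.61 to 8.84 in the others), Guca2a (11.82 in T790M 2, 6.96 to 7.87 in the others), Hspe1 (12.54 in T790M 4, 11.75 to 11.89 in the others), Npr3 (8.92 in T790M 1, 7.46 to 7.63 in the others), Tpsab1 (10.84 in T790M 2, 5.95 to 6.44 in the others) and Ube2c (10.21 in T790M 4, 8.44 to 8.78 in the others). A single T790M tumour was low for Aqp5 (9.83 in T790M 4, 11.90 to 12.40 in the others), Col15a1 (7.72 in T790M 1, 8.53 to 8.83 in the others), Cox6a1 (11.86 in T790M 2, 12.14 to 12.25 in the others), Hopx (10.85 in T790M 4, 12.05 to 12.54 in the others) and Ms4a8a (5.40 in T790M 1, 5.71 to 5.82 in the others). Among FVB normal lungs, 1 array was high for Cox4i2 (9.04 in FVB normal 4, 8.56 to 8.59 in the others), Ereg (6.09 in FVB normal 1, 4.95 to 5.27 in the others), Esrp1 (8.79 in FVB normal 1, 8.43 to 8.52 in the others), Fgfr2 (11.17 in FVB normal 5, 10.76 to 10.83 in the others), Grhl2 (9.33 in FVB normal 1, 9.02 to 9.09 in the others), Syp (7.05 in FVB normal 4, 6.90 to 6.94 in the others) and Tmem100 (12.68 in FVB normal 4, 12.36 to 12.43 in the others). A single FVB normal array was low for Bhlhe40 (10.06 in FVB normal 2, 10.31 to 10.40 in the others), Ddit3 (9.38 in FVB normal 5, 9.79 to 9.85 in the others), Dpt (11.14 in FVB normal 5, 12.11 to 12.33 in the others), Fgfr3 (11.38 in FVB normal 3, 11.55 to 11.61 in the others), Marco (6.52 in FVB normal 2, 6.98 to 7.14 in the others), Myc (7.32 in FVB normal 5, 7.50 to 7.56 in the others) and Pdgfra (10.94 in FVB normal 5, 11.92 to 12.28 in the others).

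Genes of the report that differed between T790M and L858R+T790M tumours by limma (adjusted p under 0.05, log2 difference in brackets) were, lower with T790M alone, Ereg (-3.13), Marco (-2.85), Slc26a4 (-2.34), Wfdc21 (-2.12), Gpc6 (-1.59), Tubb2b (-1.40), Slc25a30 (-1.35), Rab3c (-1.26), Ccdc83 (-1.23), Cdkn2b (-1.15), Hbegf (-1.08), Krt19 (-1.08), Epgn (-0.95), Lif (-0.88), Cdkn1a (-0.77), Slco2a1 (-0.74), Eda2r (-0.66), Egr2 (-0.63), Cdkn2a (-0.61) and Egfr (-0.28). Those higher were Sdc2 (0.58), Dut (0.73), Atf5 (0.81), Prim1 (0.82), Mcm4 (0.83), Asns (0.88), Mcm2 (0.88), Ccne2 (0.95), Aldh1l2 (1.05), Cks1b (1.11), Rassf9 (1.15), Cenpw (1.15), Uhrf1 (1.21), Mcm6 (1.23), Adam28 (1.32), Gsta3 (1.34), Elapor1 (1.62), Ddc (2.63) and Npy2r (2.76). None of these passed in a fit to both tumour groups alone.

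The T790M effect was below the L858R effect, each over normal lung of its own strain, for Krt79 (-3.19), Wfdc21 (-3.04), Cd200r4 (-3.01), Ms4a8a (-2.58), Acot1 (-2.34), Rab3c (-2.23), Vstm2a (-2.09), Slc15a2 (-1.90), Cdkn1a (-1.22) and Ccdc83 (-1.18). It was above it for Hpse (1.22), Dact1 (1.23), Zfp874a (1.29), Asns (1.29), Sdc2 (1.34), Apoe (1.46), Pcdh18 (1.46) and Ddc (3.92).

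Of 10092 probe sets with no gene name or with several, which the comparisons of genes leave out, 2383 were called between T790M tumours and FVB normal lungs.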

How the results depend on the processing

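The count of 7238 genes called between T790M tumours and FVB normal lungs stayed within 1.5 times under most alternatives. It was 13275 (7270 higher, 6005 lower) when every probe set was tested, since more features are counted, and 1531 (609 and 922) when a 2-fold change was also required. It ranged from 6514 to 7326 when 1 array was left out, with 3633 to 4049 higher and 2872 to 3277 lower. The labels do not say that replicate numbers pair samples. Deviations of same-numbered arrays correlated at -0.112, 0.0105, 0.134, 0.109 and 0.215 between T790M tumours and FVB normals. Between T790M and L858R+T790M tumours they correlated at 0.00289, 0.44, 0.223, 0.208 and 0.231. Among the FVB normals, the same-numbered array was the best match for T790M 3, 4 and 5 but not for T790M 1 and 2. Pairing was therefore neither shown nor excluded, and the numbers were not used as pairs in the main fit. With the replicate number as a block 5701 genes were called. The difference from L858R+T790M tumours depended on the model: 289 genes in the fit to 24 arrays, 0 in a fit to the tumours of both groups alone, 0 with the replicate block in limma (1857 and 2143 at an unadjusted p under 0.05), and 719 (357 higher, 362 lower) with array weights. Centring each array on its median gave 99 higher. Leaving out 1 array gave 62 to 485, with 33 to 236 higher and 29 to 249 lower. The 76 genes with differing T790M and L858R effects became 179 (76 higher, 103 lower) in a fit to those 4 groups alone, 316 (186 and 130) with array weights, and 50 to 167 without 1 array, with 25 to 88 higher and 24 to 79 lower. The cause of these shifts was not tested. The Actb integrity gap was 0.0415 to 0.104 and the Gapdh gap -0.05 to -0.0125 without 1 array; without T790M 3 the Actb gap of 0.104 had p = 0.0317 (exact two-sided permutation test). With the median over probe sets Foxm1 (0.31) and Tpx2 (0.31) turned to higher. Of 183 called genes named in the report 162 kept their call in all 21 alternatives, and 27 of 61 that were not called passed in at least 1. Of 102 list counts 41 moved by over 1.5 times somewhere. The number of arrays limits the precision.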
